A study of Mus musculus with 12 samples.

Results

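In RNA-Seq data from CD-1 mouse oocytes, 10 genes that encode regulators of maternal mRNA storage and translation were followed: Ybx2, Cpeb1, Dazl, Patl2, Zar1, Zar1l, Lsm14b, Ddx6, Eif4enif1 and Eif4e1b. They were chosen by symbol, and all 10 were among the 24562 entries of the deposited count table and among the 13943 genes tested. The data came from 12 pools of 18 to 45 oocytes each, with 3 pools in each of 4 cohorts of female CD-1 mice that carried no transgene and received no gonadotropins: postnatal day 13 (PND 13), PND 16 small and PND 16 large (mice of the same age divided by body weight), and PND 40. Oocytes were collected from antral follicles and stripped of cumulus cells. The study describes PND 13 and PND 16 small oocytes as meiotically non-competent and PND 16 large and PND 40 oocytes as competent. CD-1 is an outbred stock, each pool mixes oocytes, and the 3 pools of a cohort are the replicates.

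A growing oocyte transcribes and stockpiles mRNA, then falls silent before it resumes meiosis, so that maturation and the first steps of embryonic development are run from stored transcripts. Storage works by keeping poly(A) tails short, by occupying the cap and by packing transcripts into ribonucleoprotein particles. Translation is then switched on transcript by transcript, mostly by lengthening the tail again.

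Of the 10 genes, 3 passed the study's criteria for a change in at least 1 comparison, and the other 7 did not pass them in any. In PND 40 vs. PND 13, where all 3 passed, 18.9% of the genes tested passed too. Ddx6, an RNA helicase of repressed mRNA particles, fell to 0.401 of its level between the non-competent and the competent cohorts. In CPM (reads of a gene scaled to the size of the library) it stood at 292 ± 37.0 CPM in PND 13 and 306 ± 41.7 CPM in PND 16 small, against 125 ± 23.4 CPM in PND 16 large and 114 ± 6.87 CPM in PND 40 (SD, n = 3 pools each). Patl2, an oocyte member of the Pat1 family of repressors, fell from 170 ± 15.2 CPM in PND 13 to 74.7 ± 0.876 CPM in PND 40. Zar1l, a zygote arrest family member, rose from 105 ± 20.9 to 159 ± 17.2 CPM over the same span, a change close to the 1.5-fold limit that was not called in every fit. The other 7 genes each differed by less than 1.5-fold in every comparison of all pools. Of these, Cpeb1 and Ybx2 passed the criterion on adjusted p in some comparisons.

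**Figure D1:**
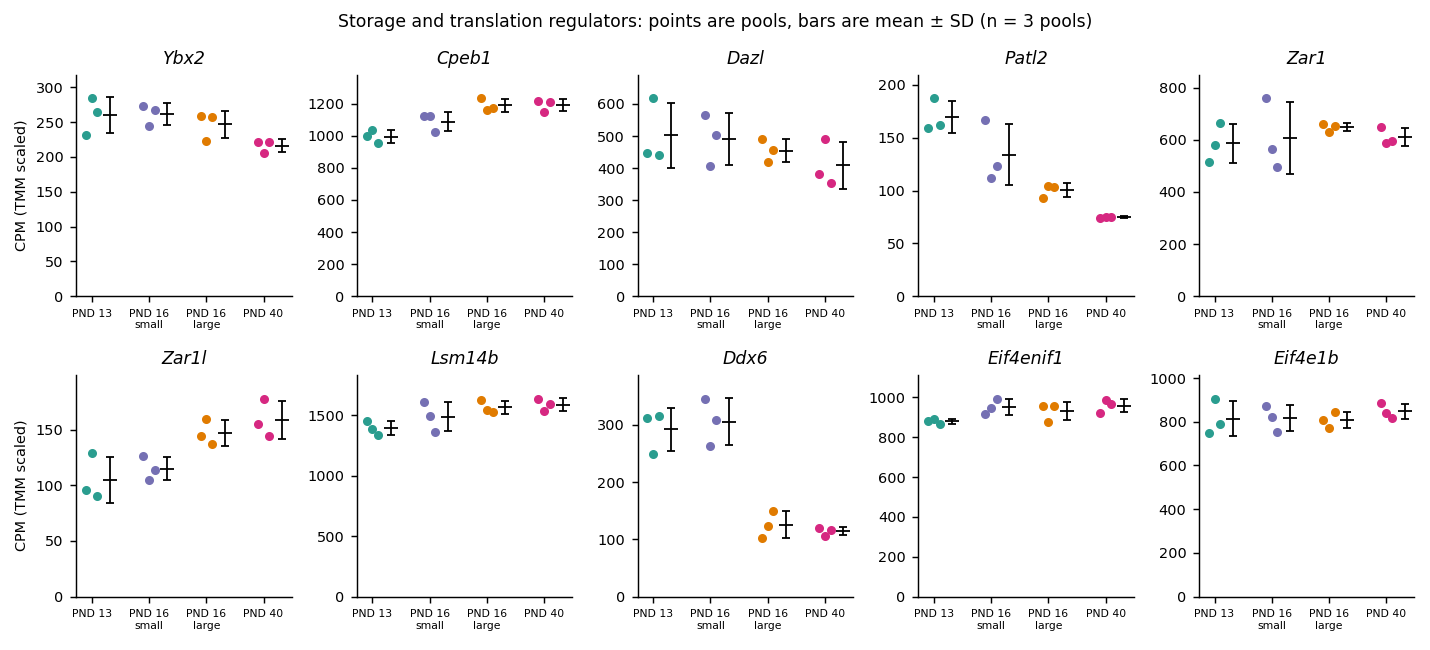
CPM, scaled by TMM, of the 10 storage and translation regulators in each of the 12 pools (points, 3 per cohort), with the cohort mean ± SD beside them (each vertical axis starts at 0). Ddx6 sits between 249 and 346 CPM in PND 13 and PND 16 small pools and between 103 and 149 CPM in PND 16 large and PND 40 pools, while Eif4e1b sits between 751 and 906 CPM in all of them.

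Pools held 17671193 to 27418358 counts in all, and the 10 genes had between 1717 and 43262 counts each in a pool. Oocyte markers summed to 14054 to 17237 CPM in the 12 pools, and 11 of the 12 had counts in every pool, Sohlh1 being near 0 throughout. Granulosa and cumulus cell markers (14 genes) were also present and were uneven among the younger pools: they summed to 553, 132 and 641 CPM in PND 13, 189, 693 and 266 CPM in PND 16 small, between 204 and 217 CPM in PND 16 large, and between 169 and 191 CPM in PND 40. Theca and stromal markers summed to at most 41.2 CPM. Blood and vessel markers (9 genes) summed to 57.0 to 71.3 CPM, of which Pecam1 alone held 52.0 to 64.6 CPM. The 10 genes together took 5994 ± 234 CPM in PND 13, 6257 ± 431 CPM in PND 16 small, 6215 ± 183 CPM in PND 16 large and 6166 ± 87.5 CPM in PND 40 (SD, n = 3, scaled by TMM). The ranges of the pools overlapped between all cohorts. Unscaled, the 10 genes held 0.567 to 0.669% of the counts of a pool. A level in CPM is a share of the RNA sequenced, so that fewer cells of a type and less RNA per cell cannot be told apart.

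A gene was called when edgeR's quasi-likelihood test gave a Benjamini-Hochberg adjusted p of at most 0.05 over the genes tested and the change was at least 1.5-fold. In PND 40 vs. PND 13, 3 of the 10 genes were called, beside 18.9% of the genes tested. In PND 40 vs. PND 16 small 2 were called (background 17.2%), in PND 16 large vs. PND 13 2 (13.3%), in PND 16 large vs. PND 16 small 1 (6.19%), in PND 40 vs. PND 16 large 0 (3.66%) and in PND 16 small vs. PND 13 0 (0.373%). When the 6 competent pools were set against the 6 non-competent pools, 2 were called, beside 15.0% of the genes tested. At these backgrounds a count of 2 or 3 among 10 genes is near the share of all genes, and what can be read from the data is which genes moved and which did not. By adjusted p without the fold criterion, the counts were 5 in PND 40 vs. PND 13 and 4 in competent vs. non-competent oocytes, beside 33.1% and 30.7% of the genes tested. In the comparisons with 0 calls by edgeR, DESeq2 and limma also called 0, and at an unadjusted p under 0.05 edgeR gave 2 genes in PND 40 vs. PND 16 large (Patl2 and Ybx2, beside 22.4% of the genes tested) and 1 in PND 16 small vs. PND 13 (Patl2, beside 19.2%).

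**Figure D2:**
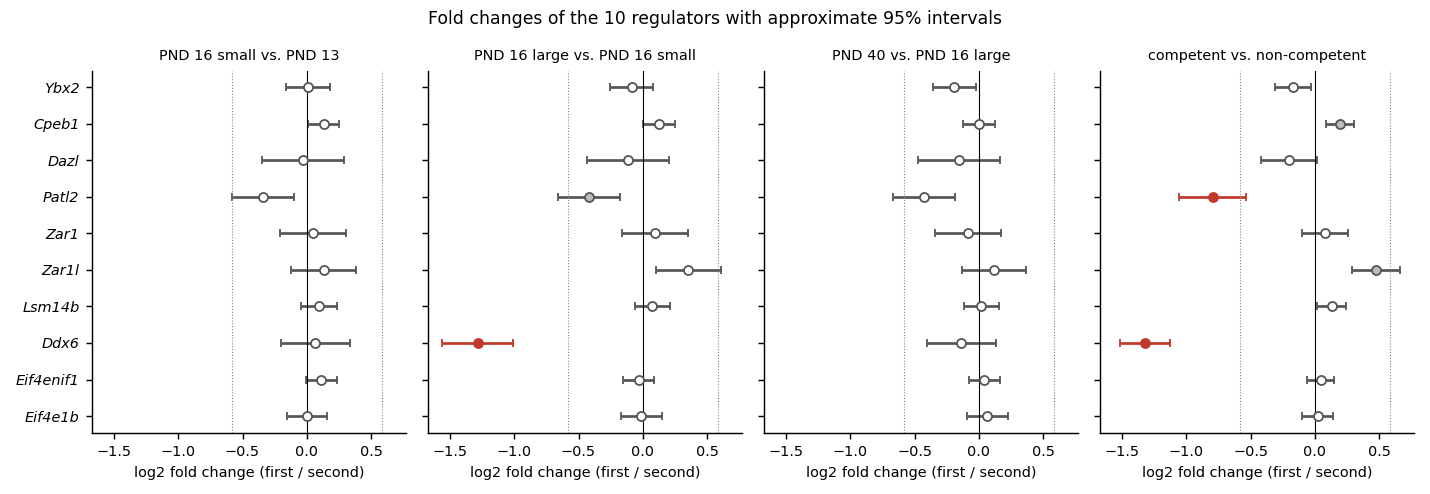
Log2 fold change of each of the 10 regulators in 4 comparisons, with approximate 95% intervals; dotted lines mark a 1.5-fold change, red points are called, grey points pass adjusted p alone and white points pass neither. The only red point in PND 16 large vs. PND 16 small is Ddx6 at -1.29, and no point is red in PND 16 small vs. PND 13 or PND 40 vs. PND 16 large.

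Values are given in order of the replicate numbers, fold changes are log2, and intervals are approximate 95% intervals. DDX6 is a DEAD-box helicase that holds mRNAs in repressed particles together with its partners LSM14, PAT1 family proteins and the eIF4E transporter. Ddx6 lies on chromosome 9 (chr9:44604892-44640731, plus strand, GRCm38). Its level was 311, 249 and 316 CPM in the 3 PND 13 pools, 346, 263 and 309 CPM in PND 16 small, 103, 124 and 149 CPM in PND 16 large, and 119, 106 and 117 CPM in PND 40. Every competent pool was below every non-competent pool, and the 2 cohorts within each of these groups overlapped. The log2 fold change in competent vs. non-competent oocytes was -1.32 (SE 0.0991, adjusted p = 1.20e-05, edgeR). Between the body weight groups of the same age, PND 16 large vs. PND 16 small, it was -1.29 (SE 0.139, adjusted p = 0.00134). In contrast, PND 16 small vs. PND 13 gave 0.07 (interval -0.20 to 0.33, adjusted p = 0.836) and PND 40 vs. PND 16 large gave -0.14 (interval -0.41 to 0.13, adjusted p = 0.628), so that a change of 1.5-fold lies outside both intervals.

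The fall of Ddx6 was set beside the granulosa cell signal, which differed among the younger pools. The PND 13 pool with the least granulosa marker RNA (132 CPM, below every competent pool) had 249 CPM of Ddx6. This was above the highest competent pool at 149 CPM and the lowest of PND 13, where the others had 311 and 316 CPM. With the 3 younger pools richest in granulosa markers left out, the log2 fold change in competent vs. non-competent oocytes was -1.33 (adjusted p = 0.000132, edgeR), against -1.32 with all pools. Of PND 13 this keeps only the pool at 249 CPM. PND 40 vs. PND 13 then went from -1.36 to -1.13, and PND 16 large vs. PND 13 from -1.22 to -0.99. PND 40 vs. PND 16 small went from -1.42 to -1.52, and PND 16 large vs. PND 16 small from -1.29 to -1.38. The part of the granulosa cell RNA in the fall of Ddx6 was not tested.

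**Figure D3:**
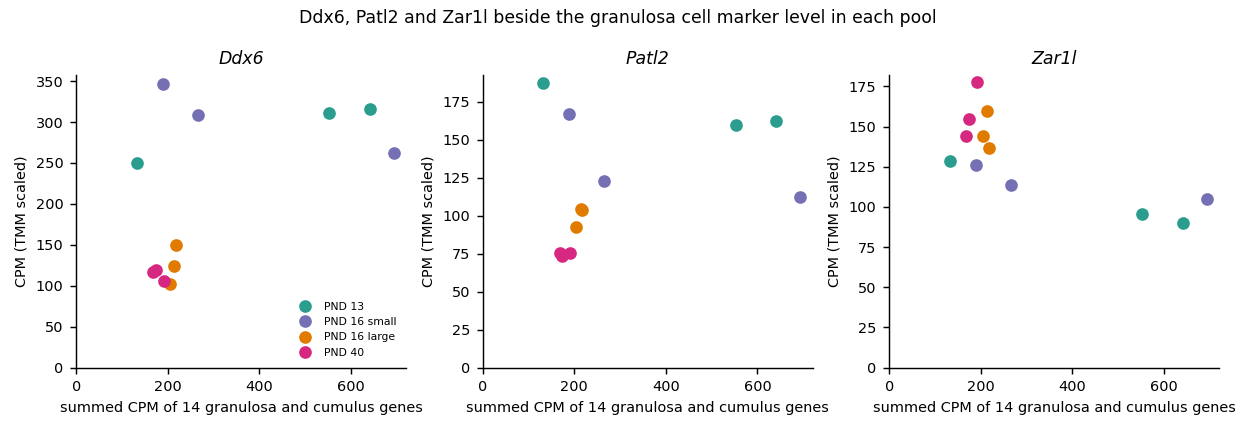
Level of Ddx6, Patl2 and Zar1l in each of the 12 pools (vertical axis, CPM from 0) against the summed CPM of 14 granulosa and cumulus cell genes in the same pool (horizontal axis), colored by cohort. The lowest marker sum is 132 CPM, in a PND 13 pool whose Ddx6 level (249 CPM) is above all competent pools. Zar1l is lowest (90.1 to 105 CPM) in the 3 pools with the highest marker sums (553 to 693 CPM).

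PATL2 is an oocyte-enriched relative of PATL1, a scaffold of repressed mRNA particles, and its loss is a known cause of oocyte maturation arrest. Patl2 is on chromosome 2 (chr2:122120108-122186189, minus strand). It was measured at 159, 187 and 162 CPM in PND 13, 167, 112 and 123 CPM in PND 16 small, 92.7, 105 and 104 CPM in PND 16 large, and 73.6, 75.1 and 75.2 CPM in PND 40. The order of the cohort means followed age and, at PND 16, body weight, and only PND 13 and PND 16 small overlapped. The log2 fold change was -1.18 (SE 0.124, adjusted p = 4.17e-05) in PND 40 vs. PND 13, -0.84 (adjusted p = 0.00033) in PND 40 vs. PND 16 small, and -0.80 (SE 0.133, adjusted p = 0.000631) in competent vs. non-competent oocytes, each by edgeR. The single steps were smaller. They were -0.34 (adjusted p = 0.151) from PND 13 to PND 16 small, -0.42 (adjusted p = 0.0413, below 1.5-fold) from PND 16 small to PND 16 large, and -0.43 (adjusted p = 0.0546) from PND 16 large to PND 40. Ddx6 and Patl2 thus differed in where the change fell: PND 16 large and PND 40 pools overlapped for Ddx6 and did not overlap for Patl2, although the difference between the genes was not tested. Without the 3 younger pools richest in granulosa markers the competent vs. non-competent value of Patl2 was -0.86 (adjusted p = 0.00294). Patl2 overlaps B2m and Trim69 on the opposite strand, whose levels averaged 8.23 and 0.0102 CPM, and whether the counting used strand is not given in the sources used here.

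ZAR1 and ZAR1L are zinc-finger proteins that bind maternal mRNAs and hold them in the oocyte cytoplasm. Zar1l is on chromosome 5 (chr5:150507055-150518164, minus strand). It stood at 95.7, 129 and 90.1 CPM in PND 13, 126, 105 and 113 CPM in PND 16 small, 144, 160 and 137 CPM in PND 16 large, and 155, 178 and 144 CPM in PND 40. All 6 competent pools were above all 6 non-competent pools. The log2 fold change was 0.60 (SE 0.128, adjusted p = 0.00327) in PND 40 vs. PND 13, just past the 1.5-fold line. It was 0.48 (SE 0.0946, adjusted p = 0.00182) in competent vs. non-competent oocytes, under that line. Within PND 13 and within PND 16 small, Zar1l was lower in pools with a higher granulosa signal. The PND 13 pool with 132 CPM of granulosa markers had 129 CPM of Zar1l. The 2 PND 13 pools with 553 and 641 CPM of markers had 95.7 and 90.1 CPM. In PND 40 the order was the reverse, with 144, 155 and 178 CPM of Zar1l beside 169, 174 and 191 CPM of markers. Of the PND 40 marker sum, Nr5a2 alone averaged 91.1 CPM, and it was at least 87.9 CPM in each of the 12 pools. Inha, in contrast, ranged from 2.34 to 143 CPM over the 12 pools. Whether the small spread of the sum in PND 40 reflects granulosa cell RNA was not tested. With the 3 younger pools richest in markers left out, the PND 40 vs. PND 13 value was 0.31 (adjusted p = 0.160) and the call was lost, with PND 13 then represented by 1 pool. The call was also lost, at a value under 1.5-fold, in 8 of 12 fits, each without a single pool (PND 13 replicates 1 and 3, PND 16 small replicates 2 and 3, each PND 16 large pool and PND 40 replicate 2). In these fits the value ranged from 0.50, without PND 13 replicate 3, to 0.58. Leaving out PND 13 replicate 2, the pool with 132 CPM of markers, moved Zar1l the other way: it reached 0.75 (adjusted p = 0.000341, edgeR) in PND 40 vs. PND 13 and was called in PND 16 large vs. PND 13 as well, at 0.64 (adjusted p = 0.00172), against 0.49 (adjusted p = 0.0144, under 1.5-fold) with all pools. Without this pool and PND 16 small replicate 1, the younger pools with the least marker RNA, it was also called in competent vs. non-competent oocytes, at 0.59 (adjusted p = 0.000665). The part of the granulosa cell RNA in this difference was not tested further.

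Zar1 itself, on the same chromosome (chr5:72576806-72581254, minus strand), passed no test. It was at 586 ± 74.0 CPM in PND 13, 607 ± 136 CPM in PND 16 small, 648 ± 15.1 CPM in PND 16 large and 610 ± 33.7 CPM in PND 40 (SD, n = 3). The cohorts overlapped in every comparison, and the log2 fold change in competent vs. non-competent oocytes was 0.08 (interval -0.10 to 0.26, adjusted p = 0.562). The count table lists Zar1 in 3 entries with identical counts in all 12 pools, 2 of them under the same symbol, and it was counted here once. A single entry held 0.0473 to 0.0752% of all counts of a pool.

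The proximal promoters of the called genes are shown because they carry the elements by which oocyte transcription factors are known to act, here from RefSeq (GRCm38.p6), 250 bases before to 50 after the start. Entries were on hand for 8 of the 10 genes, and Ddx6 and Eif4e1b were not among them. The motif TAATTG was searched on both strands, and so were its variants TAATTA and, with a G inside, TAGTTG, which are bound by the oocyte homeodomain factor NOBOX. Zar1l held 2 matches, in capitals, both of them TAATTG read on the other strand as CAATTA. The other 7 genes held none, and 18.06% of 27025 mouse promoters hold at least 1.
Zar1l, chr5:150518110-150518409, minus strand: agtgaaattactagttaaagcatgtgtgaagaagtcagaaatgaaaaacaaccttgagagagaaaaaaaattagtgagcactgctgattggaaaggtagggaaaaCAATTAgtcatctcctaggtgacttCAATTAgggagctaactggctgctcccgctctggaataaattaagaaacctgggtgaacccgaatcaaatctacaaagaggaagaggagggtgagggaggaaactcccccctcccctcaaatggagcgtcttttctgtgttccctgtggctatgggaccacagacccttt
Patl2, chr2:122186140-122186439, minus strand: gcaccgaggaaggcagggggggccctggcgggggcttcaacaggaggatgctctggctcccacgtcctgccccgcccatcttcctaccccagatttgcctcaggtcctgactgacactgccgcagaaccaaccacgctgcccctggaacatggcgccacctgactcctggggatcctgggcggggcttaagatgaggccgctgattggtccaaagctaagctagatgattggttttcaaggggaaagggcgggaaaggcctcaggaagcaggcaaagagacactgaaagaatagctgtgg
The Zar1l window is 44.3% G and C and the Patl2 window 60.7%. A match is a description of the letters and says nothing of binding in these oocytes.

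CPEB1 binds the cytoplasmic polyadenylation element (CPE) near the end of stored mRNAs, keeps them silent in the arrested oocyte and helps to lengthen their tails once meiosis resumes. Cpeb1 (chr7:81347026-81455465, minus strand) was at 997, 1033 and 953 CPM in PND 13, 1120, 1122 and 1022 CPM in PND 16 small, 1233, 1161 and 1173 CPM in PND 16 large, and 1214, 1150 and 1208 CPM in PND 40. Both competent cohorts lay above both non-competent ones with no overlap. The log2 fold change was 0.26 in PND 40 vs. PND 13 (SE 0.0632, adjusted p = 0.00676) and 0.19 in competent vs. non-competent oocytes (interval 0.08 to 0.30, adjusted p = 0.0170), so that it passed adjusted p and its interval stayed under 1.5-fold. Dazl, a germ cell RNA-binding protein that acts with CPEB1 on translation during maturation, is on chromosome 17 (chr17:50279395-50293636, minus strand). It was at 447, 618 and 442 CPM in PND 13, 565, 405 and 505 CPM in PND 16 small, 490, 418 and 456 CPM in PND 16 large, and 383, 492 and 353 CPM in PND 40. All 4 cohorts overlapped, and the competent vs. non-competent value of -0.20 (interval -0.42 to 0.01) did not pass the test (adjusted p = 0.181). Without the 3 younger pools richest in granulosa markers, which keeps only the PND 13 pool at 618 CPM, it was called lower in PND 40 vs. PND 13, at -0.59 (adjusted p = 0.0372, edgeR).

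The CPE and the letters around it are shown for the transcripts that hold it, since it is the site through which CPEB1 acts. The last 100 bases of the principal transcript of each gene (GENCODE M21, GRCm38) were searched on the transcript's strand for TTTTAT and TTTTAAT, which can share bases. Of the genes tested 19.62% of 12525 with a 3′ UTR of that length held a match. Among the 10 regulators 9 had a 3′ UTR of that length and 1 held a match, Ybx2. Among 12 transcripts known as stored and later translated or needed for maturation and mRNA clearance, 5 held at least 1: Plat, Btg4 and Cnot7 held 1 each, and Dcp1a and Orc6 held 2 each. The CPE nearest to the end of each is in capitals within 30 bases of the 3′ UTR.
Ybx2, chr11:69941532-69941561, plus strand: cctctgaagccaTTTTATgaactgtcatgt
Plat, chr8:22782744-22782773, plus strand: agtatatttataTTTTAATctattttagtt
Btg4, chr9:51119797-51119826, plus strand: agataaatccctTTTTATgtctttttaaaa
Cnot7, chr8:40493038-40493067, minus strand: tcttaaggtacaTTTTATatcaataaaaat
Dcp1a, chr14:30527009-30527038, plus strand: gcaaatatatttTTTTAATaaaatttcaaa
Orc6, chr8:85308005-85308034, plus strand: tggttttttaaaTTTTATttcactaaatgt
The polyadenylation signal, AATAAA or ATTAAA, was also searched in the last 40 bases. Ybx2 and Btg4 held none there, and the other transcripts shown held 1 each, beside 77.23% of the 12525 genes with at least 1. Transcripts with other ends were not searched, and a transcript without a match may hold an element further upstream.

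YBX2 (MSY2) is the Y-box protein that coats and stabilizes a large part of the mRNA in growing oocytes. Ybx2 (chr11:69935796-69941605, plus strand) was at 232, 284 and 264 CPM in PND 13, 273, 244 and 268 CPM in PND 16 small, 259, 223 and 257 CPM in PND 16 large, and 221, 205 and 222 CPM in PND 40. PND 40 was below each of the other cohorts with no overlap, and those 3 overlapped. The difference was small: the log2 fold change was -0.27 (SE 0.0856, adjusted p = 0.0285) in PND 40 vs. PND 13 and -0.28 (adjusted p = 0.0259) in PND 40 vs. PND 16 small, both under 1.5-fold. In PND 40 vs. PND 16 large it was -0.19 (adjusted p = 0.207).

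LSM14B, a partner of DDX6 in oocyte storage particles, was encoded by the most abundant of the 10 transcripts. Lsm14b (chr2:180024987-180035465, plus strand) was at 1391 ± 59.1 CPM in PND 13, 1487 ± 122 CPM in PND 16 small, 1565 ± 52.7 CPM in PND 16 large and 1586 ± 52.4 CPM in PND 40 (SD, n = 3). Both competent cohorts were above PND 13 without overlap, and PND 16 small spanned the gap. The log2 fold change was 0.19 (interval 0.05 to 0.33, adjusted p = 0.0532) in PND 40 vs. PND 13 and 0.13 (interval 0.02 to 0.24, adjusted p = 0.0979) in competent vs. non-competent oocytes.

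The remaining genes act at the cap. EIF4ENIF1 (4E-T) binds eIF4E and keeps it from the initiation complex, and EIF4E1B is an oocyte cap-binding protein that favors repression. Eif4enif1 (chr11:3202392-3244588, plus strand) was at 879 ± 12.4 CPM in PND 13, 952 ± 39.5 CPM in PND 16 small, 931 ± 46.2 CPM in PND 16 large and 959 ± 32.4 CPM in PND 40 (SD, n = 3). Eif4e1b (chr13:54783998-54788459, plus strand) was at 815 ± 81.2 CPM in PND 13, 816 ± 59.0 CPM in PND 16 small, 809 ± 36.8 CPM in PND 16 large and 847 ± 34.7 CPM in PND 40 (SD, n = 3). Neither passed adjusted p in any comparison. In competent vs. non-competent oocytes the log2 fold change was 0.05 (interval -0.06 to 0.15) for Eif4enif1 and 0.02 (interval -0.10 to 0.14) for Eif4e1b, both well inside a 1.5-fold change. Eif4enif1 is covered by an annotation of Drg1 on the opposite strand, which averaged 32.4 CPM.

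Levels were compared between genes after division by exon length (CPM per kilobase of GENCODE M21 exons, averaged over the cohorts). On this scale Lsm14b was highest at 521, followed by Eif4e1b at 364, Cpeb1 at 266, Zar1 at 177, Zar1l at 147, Eif4enif1 at 146, Ybx2 at 131, Dazl at 122, Patl2 at 49.2 and Ddx6 at 26.1. In PND 13 Ddx6 ranked 1071 of 13774 genes and Patl2 ranked 437, and in PND 40 they ranked 3224 and 1553. The exon length counts all annotated isoforms, so that a gene with a long isoform the oocyte does not use is understated.

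Some of the 10 genes were set beside a related gene, and the ratio of CPM per kilobase between the pair was taken within each pool. In the pair of Zar1l and Zar1 both are among the 10 genes. The ratio of Lsm14b to Lsm14a was above 1 in every pool, at 6.60 to 8.08 in non-competent and 5.52 to 6.08 in competent pools, with no overlap. Lsm14a itself was at 399 ± 30.2 CPM in PND 13 and 586 ± 8.32 CPM in PND 40, and its log2 fold change in competent vs. non-competent oocytes was 0.47 (adjusted p = 0.000138, edgeR, under 1.5-fold). The ratio of Eif4e1b to Eif4e was 20.3 to 25.0 in non-competent and 17.7 to 20.0 in competent pools, also without overlap, while Eif4e, the general cap-binding factor, had a log2 fold change of 0.27 (adjusted p = 0.00519). The ratio of Patl2 to Patl1 was 2.50 to 5.98 in non-competent and 2.10 to 3.06 in competent pools, and Patl1 had a log2 fold change of -0.06 (adjusted p = 0.659). The ratios Zar1l to Zar1, Patl2 to Patl1, Ybx2 to Ybx3 and Cpeb1 to Cpeb4 overlapped between the groups. The ratios were not tested.

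**Figure D4:**
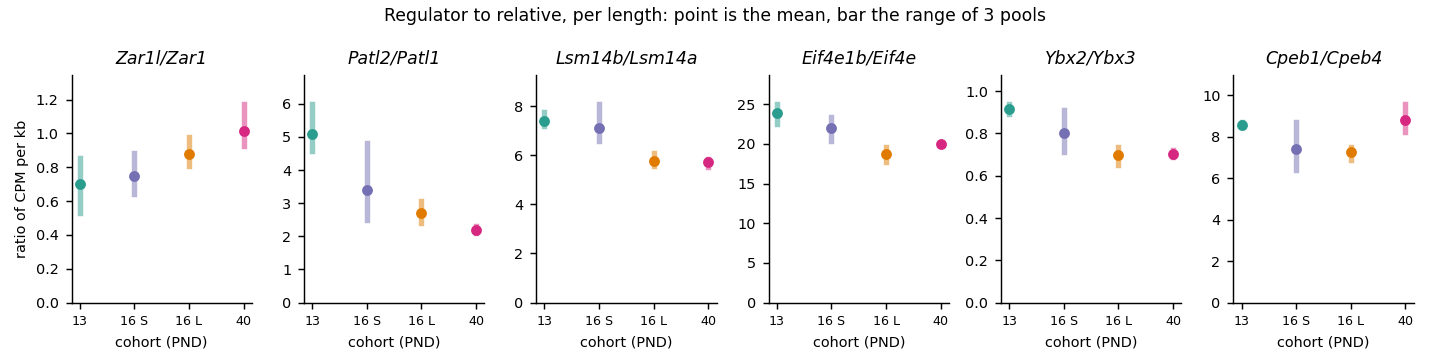
Ratio of CPM per kilobase between a regulator and a related gene, by cohort (point, mean; bar, range of 3 pools; each vertical axis starts at 0). The ratio of Lsm14b to Lsm14a is 6.60 to 8.08 in PND 13 and PND 16 small pools and 5.52 to 6.08 in PND 16 large and PND 40 pools, and the ratio of Zar1l to Zar1 overlaps.

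The wider pathway was followed in 6 lists of other genes, 79 names of which 76 were tested (Papd4 and Tent2 name the same gene, Boll, a relative of Dazl, was at 0 to 0.515 CPM, and Nanos3 had no counts). In competent vs. non-competent oocytes 1 of the 76 was called higher and 5 lower, beside 3.78% and 11.2% of the genes tested. The counts called in single lists, given below for this comparison, stand beside these same shares. By adjusted p alone, 23 were higher and 11 lower, beside 14.2% and 16.5% of the genes tested. The median log2 fold change was 0.09, against -0.0046 over the genes tested.

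Of 14 polyadenylation genes tested, 1 was called, lower. This was Cpeb2, a relative of Cpeb1, at 20.6, 30.2 and 28.8 CPM in PND 13 and 21.8, 20.0 and 23.3 CPM in PND 16 small, against 7.12, 11.2 and 9.39 CPM in PND 16 large and 9.48, 13.6 and 15.4 CPM in PND 40. The groups did not overlap (log2 fold change -1.13, SE 0.177, adjusted p = 0.000407, edgeR). Cpeb3 (0.01, adjusted p = 0.967) and Cpeb4 (0.18, adjusted p = 0.188) did not pass the test, nor did Papd4, the cytoplasmic poly(A) polymerase that CPEB1 recruits (0.26, adjusted p = 0.107).

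Of 10 genes of cap binding 0 were called by edgeR, DESeq2 or limma, and 6 had an unadjusted p under 0.05 by edgeR, beside 42.1% of the genes tested. Eif4e3 had a log2 fold change of 0.28 (adjusted p = 0.00210) and Eif4e2 of -0.19 (adjusted p = 0.103). Of 12 genes of ribonucleoprotein granules 1 was called, Edc3, an activator of decapping, which was lower, at a low level of 2.67 to 6.88 CPM in non-competent and 1.47 to 2.49 CPM in competent pools (log2 fold change -1.22, adjusted p = 0.00189). The Y-box gene Ybx1 had a value of 0.36 (adjusted p = 0.00811, under 1.5-fold) and Ybx3 of 0.11 (adjusted p = 0.284).

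Of 20 other RNA-binding regulators tested 2 were called, both lower. Syncrip, an RNA-binding protein of transport particles, was at 66.4, 53.7 and 75.0 CPM in PND 13, 61.7, 35.6 and 52.9 CPM in PND 16 small, 10.4, 15.9 and 18.8 CPM in PND 16 large, and 13.7, 15.3 and 17.1 CPM in PND 40. Its log2 fold change in competent vs. non-competent oocytes was -1.92 (SE 0.173, adjusted p = 1.44e-05, edgeR), the lowest value among the genes of the 6 lists. Fmr1, which encodes the translational repressor FMRP, was at 69.9 to 100.5 CPM in non-competent and 40.3 to 54.2 CPM in competent pools (-0.79, adjusted p = 6.07e-05). Of 8 genes of poly(A) tail binding 1 was called lower, Pabpc1, the general cytoplasmic poly(A)-binding protein, at 49.3 to 79.2 CPM in non-competent and 34.1 to 45.0 CPM in competent pools (-0.67, adjusted p = 0.000684).

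Of the 12 stored mRNAs 1 was called, Cnot7, a deadenylase subunit whose mRNA is stored for use after meiosis resumes, which was higher, at 410, 362 and 284 CPM in PND 13, 421, 574 and 508 CPM in PND 16 small, 685, 633 and 668 CPM in PND 16 large, and 649, 632 and 601 CPM in PND 40. The groups did not overlap (log2 fold change 0.60, SE 0.129, adjusted p = 0.00346, edgeR). By adjusted p alone 9 of the 12 were higher, beside 14.2% of the genes tested, and 11 of the 12 values were above 0, with a median log2 fold change of 0.34. Except for Cnot7 all of these were under 1.5-fold.

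**Figure D5:**
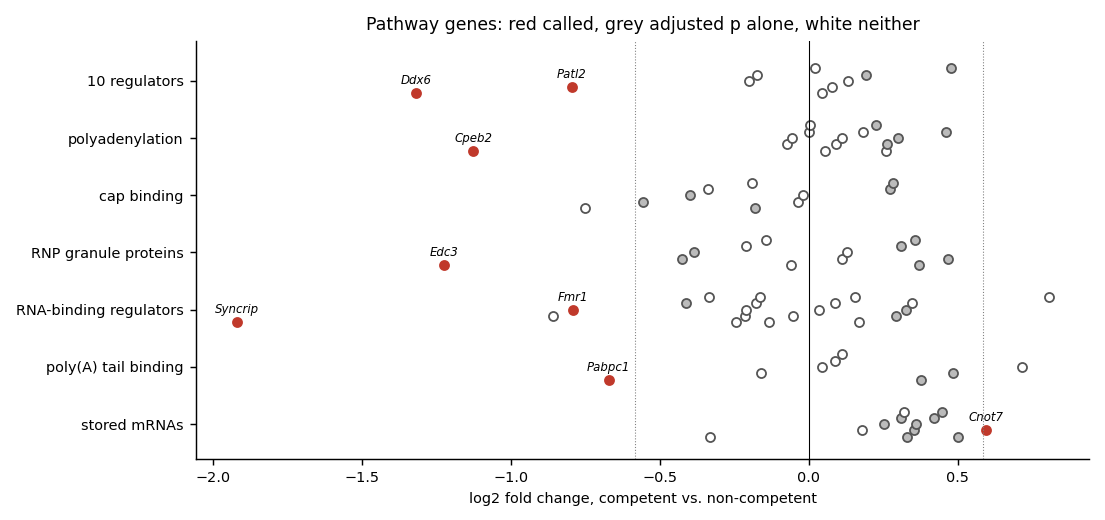
Log2 fold change in competent vs. non-competent oocytes of the 10 regulators and of the genes tested in 6 pathway lists (1 point per gene; vertical spread within a list is for legibility only), with dotted lines at a 1.5-fold change. Red points are called and named, grey points pass adjusted p alone and white points pass neither; Syncrip is lowest at -1.92, and 11 of the 12 stored mRNAs lie above 0.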

How the data were processed

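RNA was isolated from 12 pools of CD-1 oocytes, and the authors prepared directional libraries after ribosomal RNA depletion and sequenced them with 50 bp reads. The submitters' processing notes name FastQC, STAR, HTSeq, DESeq2, DESeq and HOMER and the build mm10, without versions, and the paper names the Rosalind platform. The authors deposited raw counts per gene, which were not normalized, and log2 values. In the deposited log2 table a value is log2 of (count / size factor of the pool + 1), and these factors differed from DESeq2's by at most 0.0162%. Groups came from the sample labels.

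Analyses used R 4.3.3, edgeR 4.0.16, limma 3.58.1 and DESeq2 1.42.0. Genes were kept by filterByExpr (minimum count 10) and scaled by TMM. Robust quasi-likelihood fits were made with 4 cohorts as groups (6 pairwise contrasts) and, for competence, with 2 groups of 6 pools. A call needed an adjusted p (Benjamini-Hochberg) of at most 0.05 and a 1.5-fold change, the study's criteria. SEs are approximations from the F statistic of the fit, and 95% intervals use their normal quantile. Levels are CPM, and for correlations 2 counts were added as a prior before taking log2. The fit was tested on simulated data. Reads carry no molecular identifiers, so the spread between pools was used throughout. Pools of a cohort differed beyond sampling noise (9.24 to 50.2 in chi-square for a gene on average). The paper gives 3 mice for each cohort and describes its 3 pools as independent, and whether each pool came from 1 mouse is not given in the sources used here, so p-values measure the spread between these pools.

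The 10 genes and the gene lists were chosen with earlier results of these data known. Other genes are named by a rule: every list gene called in competent vs. non-competent oocytes, the direct paralogs and partners of the 10 genes, and for each of the 10 the gene with the most similar pattern. Genes named beyond that rule (those that hold a CPE, genes overlapping in position and markers) were chosen after their values were seen. Replicate numbers were not taken as pairs: deviations of same-numbered pools correlated at -0.442 to 0.0753. Alternatives were DESeq2, RLE, upper quartile and total count scaling, a looser filter (any count), a stricter filter (minimum count 50), limma on the log2 values with a pseudocount of 1 or 0.1, no fold criterion, only the cohorts compared, a replicate block and pools left out.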

Additional observations from a re-analysis of the deposited data

How the results depend on the processing

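The number of the 10 genes called stayed within 1.5 times its reported value under each alternative except the removal of the fold criterion. Without the fold criterion 5 genes were called in PND 40 vs. PND 13, 4 in PND 40 vs. PND 16 small, 4 in PND 16 large vs. PND 13, 2 in PND 16 large vs. PND 16 small and 4 in competent vs. non-competent oocytes. In the same order, 4612, 4207, 3567, 1715 and 4283 of all 13943 genes tested were then called. When each pool was left out in turn, the counts ranged from 2 to 3 in PND 40 vs. PND 13 and in PND 16 large vs. PND 13, and were 2 in PND 40 vs. PND 16 small, 1 in PND 16 large vs. PND 16 small, 2 between the competence groups and 0 in the other comparisons. Calls among all genes tested in these fits ranged, in the same order, from 1934 to 2915, 1154 to 2061, 1850 to 2558, 333 to 1144 and 1703 to 2231. They ranged from 246 to 662 in PND 40 vs. PND 16 large and from 4 to 817 in PND 16 small vs. PND 13. Ddx6 and Patl2 kept each of their calls in all 14 settings and all 12 fits without 1 pool. Among the 14 settings, the removal of the fold criterion only loosens the main fit, so that no call could be lost in it. Zar1l in PND 40 vs. PND 13 lost its call in 4 of the 14 settings (0.53 with total counts, 0.58 with the looser filter, 0.57 with only the cohorts compared and 0.31 without the 3 younger pools richest in granulosa markers). It gained a call in PND 16 large vs. PND 13 without PND 13 replicate 2, and there and between the competence groups without that pool and PND 16 small replicate 1. With the replicate number as a block the counts were 3, 2, 0, 2, 1, 0 and 2, the same as without it. The alternatives that removed 10 repeated entries, or the 3 younger pools, were chosen after seeing the data. Scaling by total counts shifted all genes, whose median log2 fold change went from -0.04 to -0.13 in PND 16 large vs. PND 13 and from -0.03 to -0.12 in PND 16 small vs. PND 13. No value that was called changed sign. Counts behind the 10 genes were high, so that the number of pools, more than depth, limits the precision.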

Other observations

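For each of the 10 genes, the gene whose log2 CPM followed it most closely over the 12 pools was found by Pearson's r, as a description, since the pools share cohorts and scaling. Ddx6 was followed by Tmem106b (r = 0.991), a lysosomal membrane protein, and Patl2 by Tspan3 (r = 0.983), a tetraspanin. Cpeb1 was followed by Glyr1 (r = 0.979), a chromatin protein, and Zar1l by Dhx57 (r = 0.961), a putative helicase. Lsm14b was followed by Ccdc12 (r = 0.943), Eif4enif1 by Smc6 (r = 0.906), Eif4e1b by Hspa2 (r = 0.919), Dazl by Mreg (r = 0.898) and Zar1 by Gtf3a (r = 0.886), a ribosomal 5S gene factor. Ybx2 was followed by Zp1 (r = 0.921), a zona pellucida gene that averaged 1156 CPM. None of the closest genes was another of the 10.

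Among the 10 genes themselves, Cpeb1 and Lsm14b followed each other (r = 0.912 over the 12 pools), and so did Patl2 and Ddx6 (r = 0.87). The pairs that ran most in opposite directions were Zar1l and Ddx6 (r = -0.85), Cpeb1 and Ddx6 (r = -0.83) and Cpeb1 and Patl2 (r = -0.79). By Dixon's outlier test, no single pool stood apart from the other 5 of its competence group in any of the 10 genes (20 groups examined). Each group merges cohorts, and a difference between them widens its range. The test therefore cannot show whether a pool stands apart within its cohort. PND 13 replicate 2 had 618 CPM of Dazl, against 447 and 442 CPM in the other pools of PND 13. For Zar1l this pool had 129 CPM, against 95.7 and 90.1 CPM.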
